A study of Mus musculus with 6 samples.

Results

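Interferon-stimulated genes are described here in mouse CD8+ T cells grown with or without AOA (aminooxyacetic acid), an inhibitor of enzymes that use vitamin B6 as their cofactor. The list of 49 genes holds antiviral effectors, nucleic acid sensors, transcription factors, interferon-inducible GTPases, enzymes of the ubiquitin, ISG15 and ADP-ribose systems, and the interferon receptor chains. Members were found by gene symbol in the table of raw counts, which held 47 of the 49 (Mx2 and Ifi44 were not found there) among 11922 genes. All 47 passed the filter on low counts, as did 11759 genes of the table.

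Cells came from the spleens of 3 C57BL6/J mice and were taken by magnetic sorting for CD8. Both groups were activated with beads carrying anti-CD3 and anti-CD28 and were kept in interleukin-2 at 100 units per ml. One group received water as vehicle and the other 0.25 mM AOA, and RNA was taken at day 7. The labels name the same 3 donor mice in both groups, so vehicle replicate 1 and AOA replicate 1 came from the same mouse. Totals ran from 12881962 to 21997078 counts per library, so 1 count was worth 0.0460 to 0.0794 CPM. CPM are counts scaled to a library of 1000000 after adjusting the libraries by edgeR's TMM method, which allows for differences in RNA composition.

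Interferons are secreted proteins that warn cells of infection. Type I interferons bind the receptor chains Ifnar1 and Ifnar2, interferon gamma binds Ifngr1 and Ifngr2, and the receptors pass the signal through Janus kinases to STAT proteins. A complex that holds STAT2 and IRF9 then binds the interferon-stimulated response element (ISRE) of target genes, whereas STAT dimers bind the gamma-activated site (GAS), and the targets make proteins that block viruses and intracellular bacteria. Activated CD8+ T cells both make interferon gamma and respond to interferons.

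The regulatory sequence through which many of these genes are known to answer interferon was looked for first, in the stretch from 250 bases before to 50 bases after each gene start (RefSeq, GRCm38). Promoters were found for 36 of the 47 members. The ISRE was searched as GAAANNGAAA on both strands, where N is any base, and 18 of these 36 members (50%) held a match, against 3.86% of all tested genes with a promoter and 3.99% of all genes in the promoter table. By windows the shares were 41.9% for the members and 3.44% for all 32851. A GAS, searched as TTCNNNGAA, was held by 14 of the 36 members (38.9%), against 8.30% of tested genes. There were 7 members with both motifs, and in 1 of them the matches shared bases. A match is a description of the letters and no evidence of binding.

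The ISRE stretches of the 6 members that fell most under AOA among those with a match before the gene start are shown because they are the letters that the fall of transcript can be set beside. Capitals mark the matched bases, and a match on the other strand reads as TTTCNNTTTC. Each is printed 5′ to 3′ in the direction of its gene.
Ifit1, chr19:34640765-34640833, plus strand: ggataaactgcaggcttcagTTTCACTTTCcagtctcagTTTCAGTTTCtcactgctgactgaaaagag
Rsad2, chr12:26456543-26456592, minus strand: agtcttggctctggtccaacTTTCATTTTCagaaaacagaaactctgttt
Stat2, chr10:128270256-128270305, plus strand: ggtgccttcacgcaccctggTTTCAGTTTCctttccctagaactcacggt
Irgm1, chr11:48871421-48871470, minus strand: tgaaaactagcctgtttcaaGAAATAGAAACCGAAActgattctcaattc
Irgm2, chr11:58214893-58214942, plus strand: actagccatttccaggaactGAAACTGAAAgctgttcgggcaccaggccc
Oas3, chr5:120777705-120777754, minus strand: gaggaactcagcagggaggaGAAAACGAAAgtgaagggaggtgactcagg

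Counted from the start in the RefSeq promoter table, the first match began 104 bases before it in Ifit1, 120 in Rsad2, 222 in Stat2, 30 in Irgm1, 64 in Irgm2 and 75 in Oas3. Of the members' 43 windows, 29 had a start sequence found at or shortly after the beginning of a GENCODE transcript of the gene. This checks the printed direction and not the exact start. Ifit1 carried 2 separate copies, and in Irgm1 2 matches overlapped.

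Members that were not called carried the motif as well. Igtp, Isg15 and Bst2 were chosen after their values had been seen, to set beside the stretches above.
Igtp, chr11:58199502-58199551, plus strand: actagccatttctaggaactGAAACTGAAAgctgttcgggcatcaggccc
Isg15, chr4:156200855-156200916, minus strand: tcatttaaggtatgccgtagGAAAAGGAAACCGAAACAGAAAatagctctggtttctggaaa
Bst2, chr8:71537567-71537622, minus strand: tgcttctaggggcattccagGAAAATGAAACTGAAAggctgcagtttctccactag

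The printed stretches of Irgm2 and Igtp, related GTPase genes on chromosome 11, were identical at 48 of 50 bases. Isg15 held 3 overlapping matches and Bst2 held 2. Of the 18 members with an ISRE match, 9 were called lower under AOA, as were 9 of the 18 members without a match, where the shares of all tested genes with a promoter were 28.6% and 26.4%. The median log2 fold change was -0.55 with a match and -0.83 without. For the GAS, 5 of 14 members with a match and 13 of 22 without were called lower, against 26.2% and 26.6% of all tested genes with a promoter. Members that fell were thus as frequent with these ISRE letters in the window as without them.

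Under AOA 24 of the 47 members fell (51.1%) and 1 rose (2.13%), while 22 did not pass the test. Of all tested genes, 26.8% were called lower and 26.2% higher, so the members that fell were more frequent than genes that fell in the table as a whole and the members that rose were fewer. A gene is called where edgeR's quasi-likelihood test, fitted across all tested genes, gave an adjusted p (Benjamini-Hochberg) under 0.05. Log2 fold changes compare AOA with vehicle (negative where AOA is lower), each followed by its standard error (SE), with 3 libraries per group. The median log2 fold change was -0.64 over the members and -0.02 over all tested genes, and 41 of the 47 members had a value below 0. Without vehicle replicate 3 the median of the members was -0.42 and 17 fell, where 21.3% of all tested genes were called lower. In bulk RNA, fewer cells of a type and less RNA per cell cannot be told apart.

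Counted by libraries, all 3 AOA values lay below all 3 vehicle values for 26 members (31.1% of all genes did so), and above for 2 members (31.0% of all genes). The groups overlapped for 19. Within the mice, 33 members were lower under AOA in 3 of 3 (36.8% of all genes were) and 2 were higher in 3 of 3 (35.8% of all genes). The median log2 difference between the AOA and vehicle libraries of a mouse was -0.40 for mouse 1, -0.45 for mouse 2 and -0.75 for mouse 3. The members together took 0.732%, 0.646% and 0.889% of the counts of the vehicle libraries and 0.436%, 0.448% and 0.482% of those of the AOA libraries.

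**Figure D1:**
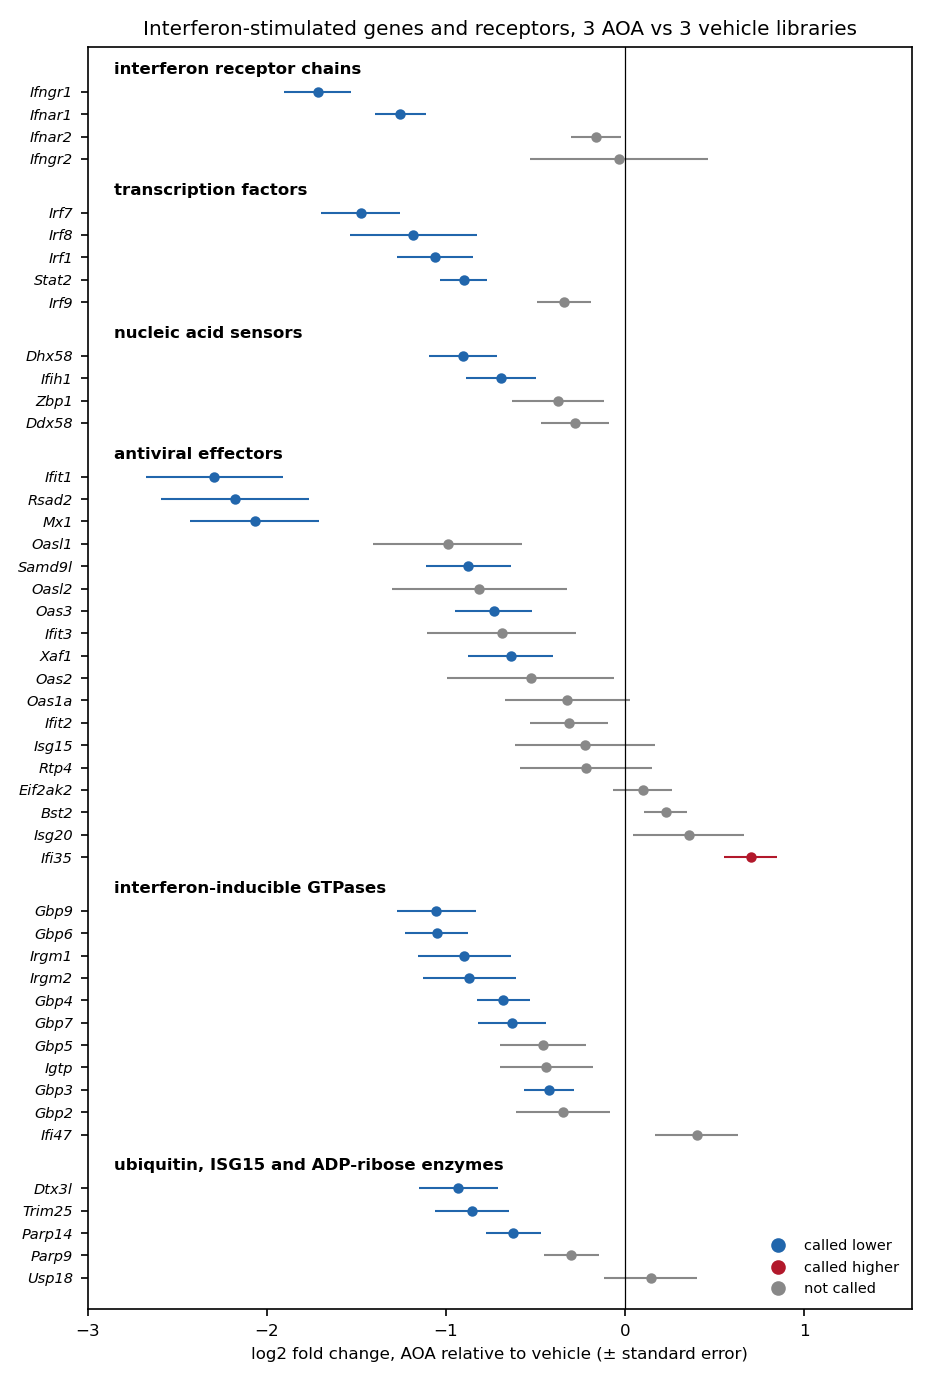
Log2 fold change of the 47 members, AOA relative to vehicle, grouped by role; points are edgeR estimates, bars are standard errors, and colour gives the call. Of the points 24 are called lower, Ifi35 is called higher, and the other 22 are not called.

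The receptor chains split by subunit. Ifngr1, the chain that binds interferon gamma (chromosome 10, 19591949 to 19610229), was the most abundant member per kilobase of transcript, at 861 RPKM in vehicle (CPM divided by transcript length in kilobases). Its level was 1895, 1478 and 2078 CPM in vehicle replicates 1, 2 and 3 and 578, 595 and 487 CPM in AOA replicates 1, 2 and 3. The means were 1817 ± 307 and 553 ± 58.2 CPM (SD, n = 3), a 3.28-fold fall with a log2 fold change of -1.72 (SE 0.19, edgeR adjusted p = 1.20e-04), and the groups lay far apart. Ifnar1, a signalling chain of the type I receptor, measured 339, 270 and 336 CPM in vehicle and 129, 131 and 136 CPM in AOA. It fell with a log2 fold change of -1.26 (SE 0.14, adjusted p = 1.42e-04), and the AOA libraries were almost level with each other.

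The partner chains were not called. Ifnar2, which with Ifnar1 completes the type I receptor, measured 161, 138 and 174 CPM in vehicle and 137, 133 and 152 CPM in AOA, with overlapping groups and a log2 fold change of -0.16 (SE 0.14, adjusted p = 0.345). Ifngr2, the signalling partner of Ifngr1, measured 31.4, 6.09 and 39.7 CPM in vehicle and 26.8, 24.7 and 24.0 CPM in AOA. Vehicle replicate 2 stood far below the other vehicle libraries. The log2 fold change of Ifngr2 was -0.03 (SE 0.50, adjusted p = 0.960), and over the left-out libraries it ran from -0.47 (adjusted p = 0.0253, without vehicle replicate 2) to 0.47 without vehicle replicate 3. Ifnar2, Ifnar1 and Ifngr2 lie in that order on chromosome 16 between 91372783 and 91564007.

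Transcription factors had the lowest median of the roles, -1.06, and 4 of 5 fell (80%, beside 26.8% of all tested genes). Irf7, the factor that drives transcription of type I interferon genes (chromosome 7, 141263183 to 141266499), measured 34.8, 32.3 and 54.2 CPM in vehicle and 13.4, 13.4 and 16.9 CPM in AOA. The groups did not overlap, and the log2 fold change was -1.48 (SE 0.22, adjusted p = 6.05e-04). Irf1, an early target of interferon gamma that itself activates other targets, measured 443, 258 and 448 CPM in vehicle and 176, 181 and 194 CPM in AOA, a log2 fold change of -1.06 (SE 0.21, adjusted p = 0.00276). Vehicle replicate 2 was the lowest of its group for Irf1 but still above all AOA libraries. Stat2, a subunit of the ISRE-binding complex, measured 84.8, 85.8 and 99.2 CPM in vehicle and 48.6, 44.1 and 51.7 CPM in AOA (log2 fold change -0.90, SE 0.13, adjusted p = 5.29e-04).

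Irf8, a lineage factor of myeloid and B cells that activated CD8+ T cells also express, measured 37.6, 98.4 and 42.9 CPM in vehicle and 21.7, 34.6 and 22.6 CPM in AOA. Its replicate 2 was the highest in both groups. The log2 fold change was -1.18 (SE 0.35, adjusted p = 0.0191), and without vehicle replicate 2 it was -0.58 and still called. The call was lost without AOA replicate 1 or AOA replicate 3. Irf9, which gives the ISRE-binding complex its DNA contact, was not called (log2 fold change -0.34, adjusted p = 0.0816). It measured 72.8, 79.7 and 98.5 CPM in vehicle and 63.7, 61.4 and 72.9 CPM in AOA. Over the left-out libraries its log2 fold change ran from -0.42 to -0.18.

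Among the sensors of foreign RNA and DNA, 2 of 4 fell (50%, beside 26.8% of all tested genes). Dhx58, the helicase LGP2, measured 18.8, 17.6 and 23.6 CPM in vehicle and 9.24, 10.7 and 12.2 CPM in AOA (log2 fold change -0.90, SE 0.19, adjusted p = 0.00339). Ifih1, the long-RNA sensor MDA5, measured 17.5, 13.8 and 20.7 CPM in vehicle and 10.4, 10.04 and 11.7 CPM in AOA (log2 fold change -0.69, SE 0.19, adjusted p = 0.0143). Neither gene's groups overlapped, but the call of Ifih1 was lost without vehicle replicate 3 (adjusted p = 0.0845). Ddx58, the helicase RIG-I, and Zbp1, a sensor of left-handed nucleic acid helices, were not called, with log2 fold changes of -0.28 and -0.38. Over the left-out libraries Ddx58 ran from -0.49 without AOA replicate 3 to -0.14 without AOA replicate 1, and Zbp1 from -0.53 without vehicle replicate 1 to 0.01 without vehicle replicate 3.

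Of the antiviral effectors 6 of 18 fell (33.3%, beside 26.8% of all tested genes) and 1 rose, with a median of -0.58. Ifit1, which binds the caps of foreign RNA (chromosome 19, 34640889 to 34650009), measured 5.24, 3.87 and 6.13 CPM in vehicle and 1.24, 0.529 and 1.31 CPM in AOA. These rest on 66, 61 and 113 counts against 27, 10 and 26, and the log2 fold change of -2.29 (SE 0.38, adjusted p = 0.00107) was the most negative among the members. Rsad2, or viperin, which makes a nucleotide that stops viral polymerases, measured 3.65, 3.04 and 5.48 CPM in vehicle and 0.644, 0.634 and 1.41 CPM in AOA (log2 fold change -2.18, SE 0.41, adjusted p = 0.00207). Both genes were scarce in either group and their groups stood apart. Of the 9 members under 10 CPM in both groups, Ifit1 and Rsad2 were the 2 that were called.

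Mx1 encodes a dynamin-like GTPase against influenza virus, and C57BL/6 mice carry an allele that lacks part of the coding exons. It measured 23.0, 48.8 and 21.9 CPM in vehicle and 10.3, 5.23 and 6.71 CPM in AOA (log2 fold change -2.07, SE 0.36, adjusted p = 0.00132). Samd9l, a restriction factor of poxviruses, measured 168, 279 and 197 CPM in vehicle and 150, 87.6 and 114 CPM in AOA (log2 fold change -0.88, SE 0.24, adjusted p = 0.0123). For Mx1 and Samd9l, vehicle replicate 2 was the highest vehicle library and AOA replicate 2 the lowest AOA library. Oas3, which makes the oligoadenylates that switch on RNase L, measured 113, 102 and 143 CPM in vehicle and 53.0, 68.9 and 93.1 CPM in AOA (log2 fold change -0.73, SE 0.21, adjusted p = 0.0174). Its call was lost without vehicle replicate 3, AOA replicate 1 or AOA replicate 2.

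The smallest called fall of an effector was that of Xaf1, a partner of the apoptosis inhibitor XIAP, with a log2 fold change of -0.64 (SE 0.24, adjusted p = 0.0456). Xaf1 lost its call with no filter on low counts, without any of AOA replicates 1, 2 and 3, without vehicle replicate 2 and without vehicle replicate 3 (log2 fold change -0.42). Ifi35, a leucine zipper protein that pairs with NMI (chromosome 11, 101448412 to 101458701), was the member that rose. It measured 39.0, 49.3 and 46.8 CPM in vehicle and 82.0, 65.6 and 71.9 CPM in AOA. All AOA libraries lay above all vehicle libraries (log2 fold change 0.70, SE 0.15, adjusted p = 0.00345).

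The remaining 11 effectors were not called, and their log2 fold changes ran from -0.99 for Oasl1 to 0.35 for Isg20. Several of these were near the limit of detection, the lowest being Oas2 at 0.274 RPKM in vehicle. Isg15, the ubiquitin-like protein that names the ISG15 system, measured 1.43, 3.04 and 4.02 CPM in vehicle and 2.62, 1.85 and 2.87 CPM in AOA (log2 fold change -0.22, SE 0.39, adjusted p = 0.656). Over the left-out libraries it ran from -0.50 without vehicle replicate 1 to 0.14 without vehicle replicate 3. At this SE a change of the size seen for Oas3 was not detectable for Isg15. Bst2, or tetherin, which holds budding virus at the cell surface, measured 78.6, 85.3 and 87.4 CPM in vehicle and 103, 93.7 and 97.6 CPM in AOA. Its groups did not overlap, yet the log2 fold change of 0.23 did not pass the test (adjusted p = 0.137). Ifit2, a relative of Ifit1, had overlapping groups and a log2 fold change of -0.31 (adjusted p = 0.252), which became -0.51 (adjusted p = 0.0104) without vehicle replicate 2 and -0.07 without vehicle replicate 3.

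Interferon-inducible GTPases attack the membranes around intracellular microbes, and 7 of 11 fell (63.6%, beside 26.8% of all tested genes), with a median of -0.63. Gbp6 measured 149, 144 and 211 CPM in vehicle and 76.4, 76.2 and 90.4 CPM in AOA (log2 fold change -1.05, SE 0.18, adjusted p = 0.00108). Gbp9 measured 69.6, 68.2 and 101 CPM in vehicle and 41.9, 27.8 and 45.3 CPM in AOA (log2 fold change -1.05, SE 0.22, adjusted p = 0.00348). Gbp4 measured 324, 336 and 370 CPM in vehicle and 245, 190 and 208 CPM in AOA (log2 fold change -0.68, SE 0.15, adjusted p = 0.00420). These 3 guanylate-binding proteins share a stretch of chromosome 5, and the groups did not overlap for any of them.

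The smaller immunity-related GTPases Irgm1 and Irgm2, which steer their relatives away from the cell's own membranes, were called with less room. Irgm1 measured 256, 161 and 340 CPM in vehicle and 109, 138 and 159 CPM in AOA (log2 fold change -0.90, SE 0.26, adjusted p = 0.0162). Irgm2 measured 159, 109 and 235 CPM in vehicle and 73.6, 102 and 99.2 CPM in AOA (log2 fold change -0.87, SE 0.26, adjusted p = 0.0191). Both calls were lost without AOA replicate 1 and without vehicle replicate 3, where the log2 fold changes were -0.59 and -0.52. Gbp7 (log2 fold change -0.63, adjusted p = 0.0201) and Gbp3 (-0.43, adjusted p = 0.0265) fell less and each lost its call without any of 4 single libraries. For Gbp7 the value without vehicle replicate 3 was -0.42.

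Gbp2, Gbp5, Igtp and Ifi47 were not called, with log2 fold changes of -0.35 for Gbp2 (0.06 without vehicle replicate 3) and -0.46 for Gbp5. Igtp, the second most abundant member per kilobase, at 343 RPKM in vehicle, measured 710, 442 and 932 CPM in vehicle and 417, 562 and 555 CPM in AOA (log2 fold change -0.44, adjusted p = 0.180). It was lower under AOA in mice 1 and 3 and higher in mouse 2. Without vehicle replicate 2, Igtp (-0.65, adjusted p = 0.0190) and Gbp5 (-0.64, adjusted p = 0.0193) passed the test as lower, and without vehicle replicate 3 they were at -0.14 and -0.16. Ifi47 went the other way, with 323, 247 and 436 CPM in vehicle and 549, 380 and 398 CPM in AOA (log2 fold change 0.40, adjusted p = 0.172), and without vehicle replicate 3 it passed as higher (0.66, adjusted p = 0.0423).

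In the group of ubiquitin, ISG15 and ADP-ribose enzymes 3 of 5 fell (60%, beside 26.8% of all tested genes), with a median of -0.62. Dtx3l, a ubiquitin ligase, measured 379, 286 and 484 CPM in vehicle and 159, 208 and 235 CPM in AOA (log2 fold change -0.93, SE 0.22, adjusted p = 0.00637). Trim25, the ubiquitin ligase that activates RIG-I, measured 218, 135 and 234 CPM in vehicle and 98.1, 119 and 108 CPM in AOA (log2 fold change -0.86, SE 0.20, adjusted p = 0.00679). Parp14, which attaches single ADP-ribose units to proteins, measured 199, 231 and 233 CPM in vehicle and 118, 151 and 161 CPM in AOA (log2 fold change -0.62, SE 0.16, adjusted p = 0.00832). The groups of all 3 stood apart.

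Parp9, the binding partner of Dtx3l, had 144, 148 and 196 CPM in vehicle and 137, 125 and 134 CPM in AOA. Although the groups did not overlap it was not called (log2 fold change -0.30, adjusted p = 0.125). Over the left-out libraries Parp9 ran from -0.36 to -0.12. Dtx3l and Parp9 overlap on chromosome 16, where Dtx3l ends at 35939027 and Parp9 begins at 35938470, so if strand was not used in counting, some reads may be shared. Usp18, the protease that removes ISG15 from proteins and restrains the type I receptor, measured 8.89, 6.21 and 10.04 CPM in vehicle and 11.8, 8.72 and 7.26 CPM in AOA (log2 fold change 0.14, adjusted p = 0.668, and -0.07 without AOA replicate 1).

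**Figure D2:**
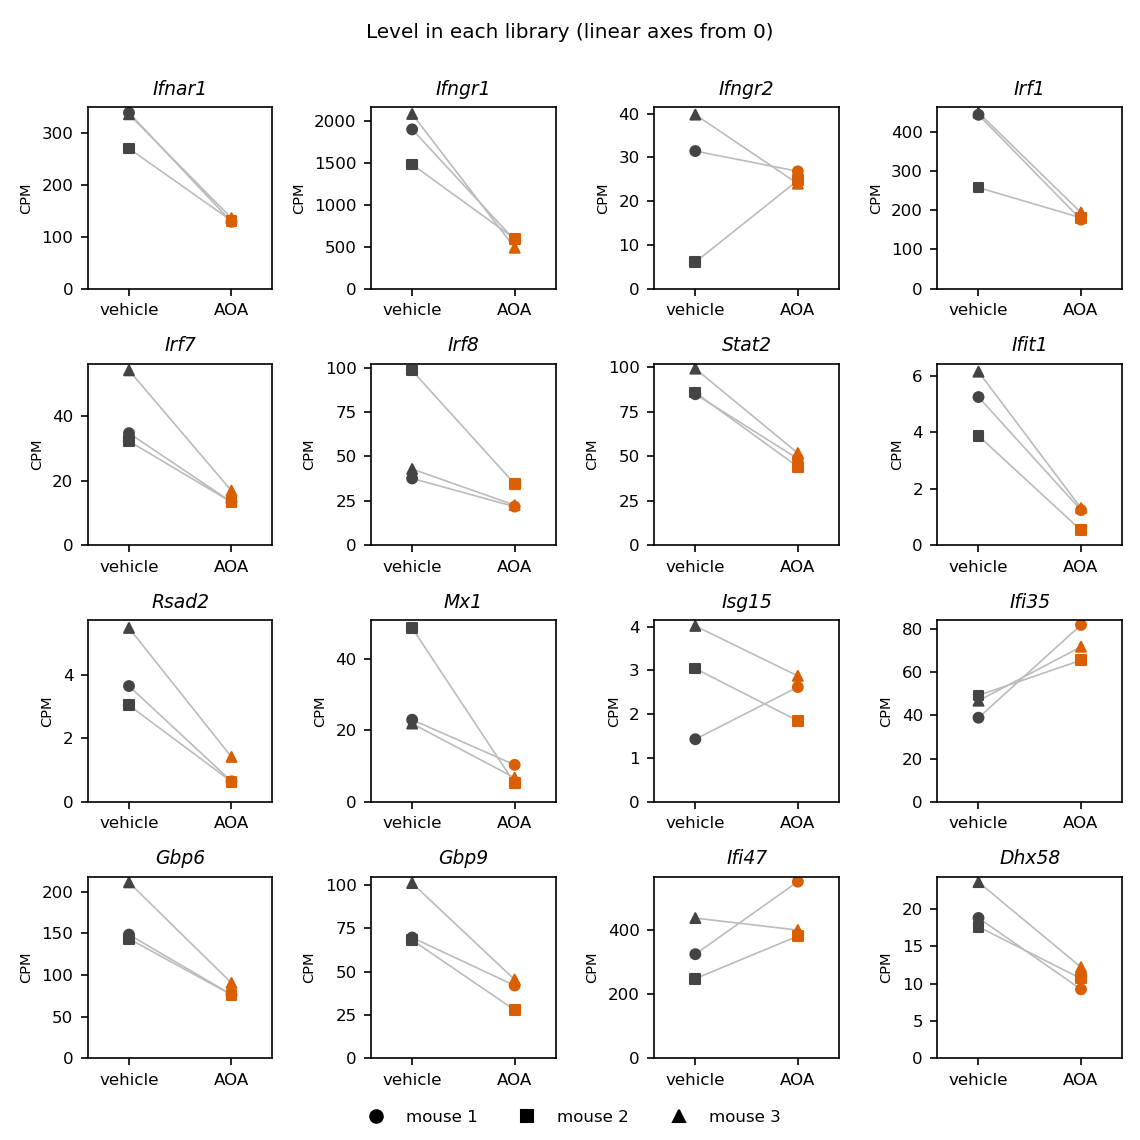
Level of 16 members in CPM (linear axes from 0) in each vehicle and AOA library, with a marker shape for each mouse and a line joining its libraries. The lines of Ifngr1 run from 1478 to 2078 CPM down to 487 to 595 CPM, those of Ifi35 run upward, and the vehicle library of mouse 2 sits apart for Mx1 and Irf8.

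The libraries had an order of their own across the members. Vehicle replicate 3 was the highest vehicle library for 39 of 47 members and AOA replicate 3 the highest AOA library for 29, and both held for 28. The lowest vehicle library was replicate 2 for 26 members and replicate 1 for 20. The median member stood at 6.12, 6.32 and 6.62 log2 CPM in vehicle replicates 1, 2 and 3 and at 5.73, 5.82 and 6.17 log2 CPM in the AOA libraries of the same mice. The third mouse thus had the highest median level in both groups, and vehicle replicate 2 was the highest vehicle library for 7 members, among them Mx1, Samd9l and Irf8.

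Members lie in groups of related genes, and the positions of listed genes that the table held were compared with their calls (GRCm38). Used were the members other than receptor chains and, from the lists below, the induction route and the other interferon-stimulated genes. A gene joined a group where it began no more than 1000000 bases after the end of the gene before it. On chromosome 1, from 173349547 to 173942866, the 7 genes of the AIM2-like family, which detect DNA, that the table held (of 12 listed) fell (Aim2, Ifi203, Ifi208, Ifi209, Ifi213, Ifi214 and Mndal), with log2 fold changes from -2.22 for Ifi213 to -0.61 for Mndal. The call of Ifi203 was lost without vehicle replicate 1, vehicle replicate 3 or AOA replicate 1. On chromosome 7, from 140954837 to 141266499, Ifitm1, Ifitm2 and Ifitm3, which block fusion of viruses with the cell, fell together with their neighbour Irf7, with log2 fold changes of -2.15, -1.27 and -0.96. The call of Ifitm3 was lost without vehicle replicate 2 (log2 fold change -0.55), vehicle replicate 3, AOA replicate 1 or AOA replicate 2. On chromosome 5, from 105012513 to 105346476, 5 of 6 Gbp genes fell, whereas in the other Gbp group, on chromosome 3 from 142496934 to 142638008, 2 of 4 did (Gbp3 and Gbp7).

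Other families split. Of the 5 Oas genes on chromosome 5 (120730333 to 120907544) Oas3 and Oas1b (log2 fold change -1.62) fell, and of the 5 Ifit genes on chromosome 19 (34550550 to 34662981) Ifit1 alone did, with Ifit3b not tested for low counts. Ifit1bl1 of that group was called lower with DESeq2, with the mouse as a block and without vehicle replicate 2. Genes within these families are related in sequence, and the counts rest on uniquely mapped reads, so levels of close relatives may be uncertain, which was not tested.

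**Figure D3:**
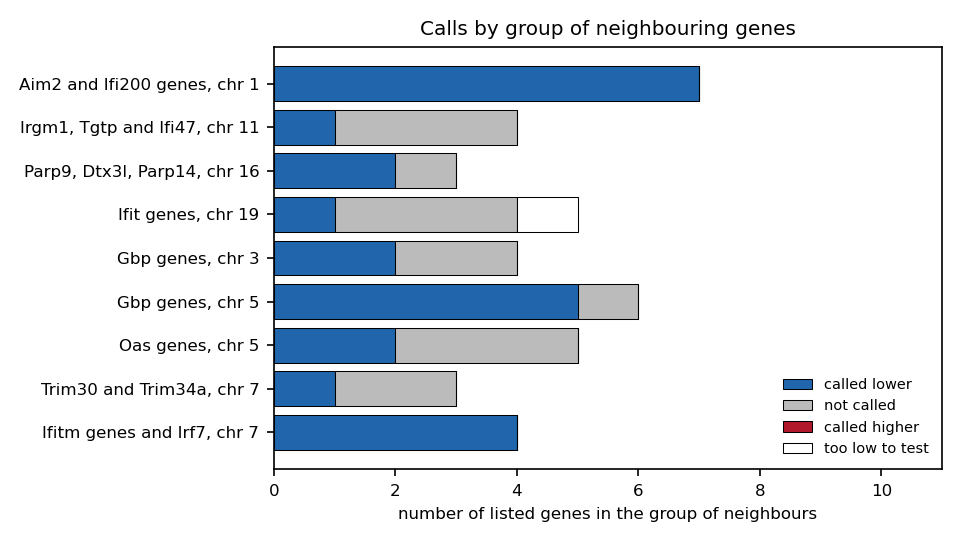
Number of listed genes in the count table called lower, called higher and not called under AOA in each group of neighbouring interferon-stimulated genes. The chromosome 1 group (7 of 7) and the chromosome 7 group with Irf7 (4 of 4) are lower throughout, while the Ifit group on chromosome 19 has 1 of 5 lower.

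Beyond the members, 123 further genes of the interferon pathway are reported, of which 86 were in the table and 83 were tested. Of these 37 fell (44.6%) and 11 rose (13.3%), with a median log2 fold change of -0.38. Of all tested genes 26.8% were called lower and 26.2% higher, with a median of -0.02. Of 21 listed interferons, the table held Ifng alone, the gene of interferon gamma. Ifng measured 4.13, 8.50 and 3.04 CPM in vehicle and 4.96, 2.75 and 3.03 CPM in AOA, with overlapping groups (log2 fold change -0.54, adjusted p = 0.293, and 0.05 without vehicle replicate 2).

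The kinases behind the receptors fell in 3 of 3 cases (beside 26.8% of all tested genes), with a median of -1.26. Jak1, which serves both receptors, measured 2319, 1578 and 2188 CPM in vehicle and 610, 770 and 753 CPM in AOA (log2 fold change -1.51, SE 0.20, adjusted p = 3.24e-04). Jak2, the partner kinase at the interferon gamma receptor, measured 281, 296 and 285 CPM in vehicle and 106, 126 and 126 CPM in AOA (log2 fold change -1.26, SE 0.13, adjusted p = 1.03e-04). Tyk2, the partner kinase at the type I receptor, measured 123, 135 and 113 CPM in vehicle and 55.8, 66.4 and 70.3 CPM in AOA (log2 fold change -0.95, SE 0.14, adjusted p = 5.69e-04). The 3 kinases had groups well apart in every case.

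The 8 listed brakes on the signal moved both ways. The phosphatases Ptpn1 (log2 fold change 0.86, adjusted p = 0.00195), Ptpn6 (0.77, adjusted p = 0.00442), Ptpn2 (0.49, adjusted p = 0.0127) and Ptpn11 (0.47, adjusted p = 0.0457), of which Ptpn1 and Ptpn2 are known to remove phosphate from Janus kinases or STATs, rose. Socs3 (-0.94, adjusted p = 0.0100), an inhibitor of cytokine receptor kinases, and Irf2 (-0.71, adjusted p = 0.0151), a repressor that competes with IRF1 for DNA, fell. Socs1, the main SOCS brake on interferon gamma signalling, had a log2 fold change of -0.06 and was not called. Over the left-out libraries Socs1 ran from -0.23 to 0.15. The calls of Ptpn2 (without vehicle replicate 1), Socs3 (without AOA replicate 1) and Irf2 (without vehicle replicate 1, vehicle replicate 3 or AOA replicate 1) each rested on single libraries. The call of Ptpn11, whose groups overlapped, was lost with scaling by total counts, with a filter of 10 CPM in 3 libraries, and without vehicle replicate 1, vehicle replicate 3, AOA replicate 2 or AOA replicate 3.

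Upstream of the interferon genes, 7 of 16 tested genes of the induction route fell (43.8%) and 2 rose (12.5%). The shares of all tested genes were 26.8% and 26.2%. Irf5, which turns on interferon and inflammatory genes, measured 74.4, 57.6 and 68.2 CPM in vehicle and 14.1, 17.2 and 14.1 CPM in AOA (log2 fold change -2.14, adjusted p = 1.95e-05). Samhd1, which breaks down deoxynucleotides, Trex1, which digests stray DNA, and Ticam1, an adaptor of endosomal receptors, fell with log2 fold changes of -1.20, -1.13 and -1.10. The 2 that rose were Cgas, the sensor of cytosolic DNA, with 5.95, 9.26 and 8.63 CPM in vehicle and 25.4, 26.3 and 25.7 CPM in AOA (log2 fold change 1.69, adjusted p = 1.52e-04), and Tlr7, an endosomal RNA receptor. Tlr7 measured 0.873, 0.634 and 2.33 CPM in vehicle and 9.65, 8.83 and 11.1 CPM in AOA (log2 fold change 2.90, adjusted p = 5.29e-04). Sting1, Mavs, Tbk1 and Irf3, which relay the signals of the DNA and RNA sensors, were not called, with log2 fold changes from -0.27 to -0.13.

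**Figure D4:**
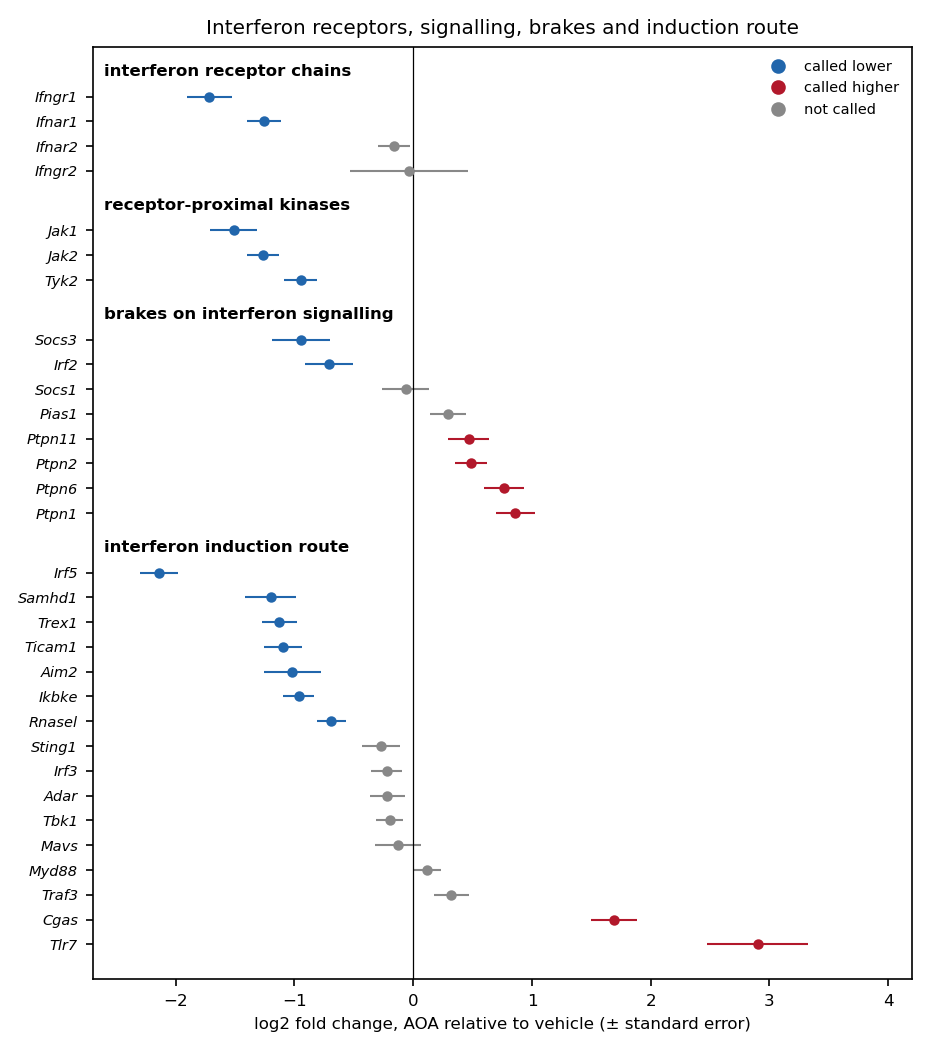
Log2 fold change, AOA relative to vehicle, of receptor chains, kinases, brakes and the induction route, with points as edgeR estimates, bars as standard errors and colour as the call. Jak1, Jak2 and Tyk2 lie left of 0, 4 phosphatases lie right of it, and Tlr7 (2.90) and Irf5 (-2.14) mark the ends of the induction route.

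A longer list of other interferon-stimulated genes held 72 names, with 55 tested and a median of -0.42. Of the tested genes 25 fell (45.5%) and 5 rose (9.09%), beside 26.8% and 26.2% of all tested genes. Those that fell most were Gbp10 (log2 fold change -2.90, adjusted p = 8.37e-04), Ifi213 (-2.22, adjusted p = 0.00158), Ifitm1 (-2.15, adjusted p = 1.72e-04) and Ifi214 (-2.09, adjusted p = 2.65e-04). Ifitm1 was abundant, with 640, 1335 and 971 CPM in vehicle and 228, 221 and 217 CPM in AOA, so its AOA libraries were level while its vehicle libraries spread. Those that rose most were Parp12 (1.09, adjusted p = 0.00135), which silences viral translation, Ifi30 (0.84, adjusted p = 0.00174), a lysosomal thiol reductase, Il18bp (0.76, adjusted p = 0.0304), a decoy for interleukin-18, and Pnpt1 (0.62, adjusted p = 0.0117), a mitochondrial RNA exonuclease. The call of Il18bp was lost without any single library other than vehicle replicate 2.

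Markers of other cells that the sorted cultures could hold were summed in each library, and the myeloid, dendritic and CD4 T cell sums were lower in every AOA library than in any vehicle library. The 7 CD8 T cell markers, all present, summed to 4207 to 5224 CPM in vehicle and 5133 to 6066 CPM in AOA. Of these Cd8a and Cd8b1 rose (log2 fold changes 1.03 and 0.64), Cd2 fell (-0.61), and Cd3d, Cd3e, Cd3g and Lck were not called, with values from -0.31 to -0.06. The 5 of 7 myeloid markers in the table summed to 56.5 to 68.5 CPM in vehicle and 4.64 to 8.51 CPM in AOA. The vehicle sum was mostly that of Itgam, an integrin that activated CD8+ T cells also carry. Cd68 fell as well, from a mean of 14.4 CPM to 3.83 CPM (log2 fold change -1.91, adjusted p = 1.10e-04), and Cybb was not called (-0.56). Lyz2 was at 0 in vehicle replicates 1 and 3 and Cd14 at 0 in AOA replicates 1 and 3. The 2 of 7 dendritic markers in the table, Itgax and Xcr1, summed to 27.4 to 48.7 CPM in vehicle and 2.12 to 2.91 CPM in AOA.

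CD4 T cell markers, 4 of 4 present, summed to 158 to 210 CPM in vehicle and 33.0 to 54.3 CPM in AOA. Of these Cd4, Zbtb7b and Cd40lg fell (log2 fold changes -3.08, -2.17 and -2.58). Foxp3 went the other way and was not called (0.36, adjusted p = 0.127). B cell markers (4 of 7) summed to 12.6 to 16.6 CPM in vehicle and 22.6 to 30.7 CPM in AOA, NK cell markers (3 of 5) to 145 to 308 and 128 to 213 CPM, with Ncr1 at 0 in vehicle replicates 1 and 3, and 0 of 6 erythroid markers were in the table. The NK cell sum was mostly that of Eomes, which CD8+ T cells also express, whereas Klrb1c, a receptor of NK cells, measured 41.7, 111 and 20.1 CPM in vehicle and 6.99, 11.05 and 3.38 CPM in AOA and fell (log2 fold change -3.02, adjusted p = 0.00310). The part of these cells in the fall of the interferon-stimulated genes was not tested.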

How the data were processed

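RNA of 3 vehicle and 3 AOA cultures was sequenced. Per the labels, libraries were stranded and made from messenger RNA, and the submitters' processing notes name bcl2fastq, STAR, featureCounts, DESeq2 and the mm10 build. The authors deposited raw counts per gene, made from reads that mapped uniquely, beside each gene's Entrez number, symbol and length. The versions of these tools, the annotation, strand setting and gene filter were not given in the sources used here, and the study's methods name DESeq2 for differential expression.

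Counts were fitted in R 4.3.3 with edgeR 4.0.16 (filterByExpr, minimum count 10, TMM, robust quasi-likelihood test, Benjamini-Hochberg, threshold 0.05) on all genes, and RPKM used the deposited lengths. Alternatives were limma 3.58.1 (voom), DESeq2 1.42.0, total counts, median-of-ratios factors, no filter, at least 10 CPM in 3 libraries, a log2 fold change of at least 1, the mouse as replicate block, and each library left out. Steps were tested on simulated data. Of the columns of per-sample values, 0 were without a sample.

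The labels name the donor mouse of each library, and the same 3 mice are named in both groups, which pairs the cultures. The r across genes of the deviations of a mouse's paired libraries from their group means was 0.0868, 0.189 and 0.194 (genes are not independent replicates).

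The members, the pathway and marker lists and the tests were chosen with earlier results of these data known. Every member could be named. Values in every library are given for receptor chains, up to 5 called members per role with the largest absolute log2 fold change, and called members that go against their role. Of other lists, those with the largest changes are named. The result of 1 gene of the pathway list was left out and is not reported here, and it is in none of the counts given for that list. With 3 against 3 cultures an unpaired two-sided exact permutation test of 1 gene cannot go below 0.1, so only the fit across all genes was used.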

Additional observations from a re-analysis of the deposited data

How the results depend on the processing

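With the mouse as a replicate block, which uses the pairing of cultures, 24 members were lower and 1 higher, the same 25 genes as without it, and the other pathway genes stayed at 37 lower and 11 higher, with Ifit1bl1 gained (adjusted p = 0.0280) and Tor3a lost (adjusted p = 0.0558). DESeq2, limma, median-of-ratios factors and total counts each called 24 members lower and 1 higher, with no filter 23 and 1, and at 10 CPM in 3 libraries 22 and 1 of 38 members tested. Under that last filter 7 other pathway genes were higher, from 77 tested. A log2 fold change of at least 1 left 10 members lower and 0 higher, and 19 and 3 of the other pathway genes. Of all 11759 tested genes 1663 were lower at that threshold, and those higher at it were not counted. Leaving out each library gave 17 to 27 members lower and 1 to 2 higher, where 20.6% to 27.9% of all tested genes were lower and 21.3% to 29.6% higher, 29 to 42 and 7 to 12 other pathway genes lower and higher, the 7 without vehicle replicate 1, and a median of the members from -0.75 to -0.42, the last without vehicle replicate 3, the cause of which was not tested. Of the 25 called members, 17 kept their call under every test, scaling, filter and left-out library that tested them. At a few CPM, as for Isg15, a value rests on few counts, and the part of depth in its missing call was not tested.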
